A study of Arabidopsis thaliana with 18 samples.

Results

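Monolignols are the alcohols from which lignin is polymerised, and 9 genes whose products act in the branch that makes them were followed in the seed coat and endosperm of *Arabidopsis thaliana*. They were picked by gene identifier as known enzymes of the branch, and are 9 of the 37861 nuclear genes kept from the deposited tables. The 9 are *C3'H* (AT2G40890), *CSE* (AT1G52760), *CCoAOMT1* (AT4G34050), *COMT1* (AT5G54160), *CCR1* (AT1G15950), *CCR2* (AT1G80820), *CAD4* (AT3G19450), *CAD5* (AT4G34230) and *F5H1* (AT4G36220). All 9 had a count and were tested in every comparison.

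The monolignol branch starts from *p*-coumaroyl shikimate, the product of HCT at the end of the general phenylpropanoid steps. Hydroxylation and methylation of the aromatic ring set whether an H, G or S unit results, and reduction of the CoA thioester to an aldehyde and then to an alcohol finishes the monolignol. Feruloyl-CoA, made by CCoAOMT1, is also the source of the ferulate found in suberin, the polyester that impregnates barrier cell walls in roots and seed coats.

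Seeds of *myb107-2*, an insertion line in the gene of the transcription factor MYB107, and of wild type (WT), both in the Col-0 background, were compared. The *myb107-2* groups were sampled 11 days after pollination (11 DAP) from plants kept at 22 °C, and after a further 48 h in the cold (11 DAP+Cold). The WT groups were 11 DAP, 11 DAP followed by 6 h of cold, 11 DAP+Cold and 13 DAP, the last without cold. The labels give 13 °C for the cold, and the text of the study gives a lower temperature. Each of the 6 groups had 3 libraries, 18 in all, and each library came from the dissected seed coats and endosperms of several plants, so that p-values describe the spread between such pools. In the pairs of 11 DAP+Cold with 11 DAP, cold and a further 48 h of development cannot be told apart. The same holds for 6 h of cold and the time that passed, as no group was sampled after 6 h without cold. No *myb107-2* library was made at 13 DAP, and a single mutant allele was sequenced.

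Library totals ranged from 43.1 M to 84.0 M estimated counts, with a median of 65.4 M. Levels are given as CPM, counts per 1 M counts of the library, after TMM scaling, and a count of 3 was worth between 0.0315 and 0.101 CPM. *MYB107* itself had 2.37, 2.82 and 3.84 CPM in *myb107-2* at 11 DAP, against 40.5, 27.8 and 34.7 CPM in WT, and 5.71, 4.15 and 3.79 CPM in *myb107-2* at 11 DAP+Cold, against 62.0, 52.3 and 43.5 CPM in WT. WT 13 DAP replicate 1 had 47.0% of its counts in ribosomal RNA units, and the values of the 9 genes at 13 DAP are given with and without it. Genes were called where the adjusted p did not exceed 0.05 and the log2 fold change was 1 or more in either direction. The summed level of 5 seed coat markers lay between 707 and 1276 CPM in the WT 13 DAP libraries and between 2358 and 2413 CPM in the WT 11 DAP libraries. Of these markers 4 of the 5 (*BAN*, *TT10*, *MUM4* and *PER36*) were called lower at 13 DAP (3 without replicate 1 of 13 DAP), while *TT12* was listed at 0 there. Of all genes tested, 5.52% were called lower at 13 DAP than at 11 DAP. Of 3 endosperm markers *SUC5* was lower at 13 DAP (log2 fold change -2.96), *ZOU* had -0.64, and *EPR1*, which made up nearly all of their summed level, had 0.91, so that the sum was between 26550 and 30600 CPM at 13 DAP and between 13400 and 18270 CPM at 11 DAP. Of 7 markers of xylem and secondary walls, the tissue in which these enzymes are best known, the vessel regulators *VND6* and *VND7* were listed at 0 in all 18 libraries. The summed level of the 7 lay between 1.29 and 4.84 CPM in *myb107-2* at 11 DAP+Cold and between 9.74 and 14.5 CPM in *myb107-2* at 11 DAP, and in WT between 5.08 and 6.81 CPM at 11 DAP+Cold, between 2.28 and 6.50 CPM at 13 DAP and between 12.9 and 16.5 CPM at 11 DAP. The cellulose synthase genes *CESA7* and *CESA8* were called lower at 13 DAP (-3.54 and -1.86), after 48 h of cold in WT (-2.56 and -1.67) and in *myb107-2* at 11 DAP+Cold against 11 DAP (-4.07 and -2.62), with several of these calls lost under another tool or without 1 library. In these comparisons 5.52%, 3.2% and 3.83% of all genes tested were called lower. In such bulk samples fewer cells of a type and less RNA per cell cannot be told apart, and the part of tissue makeup in the results below was not tested.

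Lignin promoters are known for AC elements, short A- and C-rich motifs bound by R2R3-MYB factors. Windows of 300 bases, from 250 bases before to 50 bases after the annotated start of transcription, were read for all 9 genes from the RefSeq genome TAIR10.1, and both strands were searched for AC-I (ACCTACC), AC-II (ACCAACC) and AC-III (ACCTAAC). No window of the 9 held more than 1 match. AC-II was present in 4 of the 9 windows and in 3.38% of 27420 windows of all genes. AC-I and AC-III, present in 1.40% and 2.96% of all windows, were in none of the 9. The 4 windows with AC-II are printed 5′ to 3′ on the strand of the gene, in the order of the pathway, with the motif in capitals, to show where it lies. They are at chr2:17060603-17060902 on the minus strand for *C3'H*, chr4:16310518-16310817 on the plus strand for *CCoAOMT1*, chr1:5478353-5478652 on the plus strand for *CCR1* and chr4:16388891-16389190 on the minus strand for *CAD5*.
C3'H: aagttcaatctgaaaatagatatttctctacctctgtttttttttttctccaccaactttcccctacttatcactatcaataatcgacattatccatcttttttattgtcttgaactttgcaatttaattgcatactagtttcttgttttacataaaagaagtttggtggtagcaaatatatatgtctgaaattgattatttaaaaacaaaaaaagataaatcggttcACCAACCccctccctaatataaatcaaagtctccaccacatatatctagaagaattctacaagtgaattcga
CCoAOMT1: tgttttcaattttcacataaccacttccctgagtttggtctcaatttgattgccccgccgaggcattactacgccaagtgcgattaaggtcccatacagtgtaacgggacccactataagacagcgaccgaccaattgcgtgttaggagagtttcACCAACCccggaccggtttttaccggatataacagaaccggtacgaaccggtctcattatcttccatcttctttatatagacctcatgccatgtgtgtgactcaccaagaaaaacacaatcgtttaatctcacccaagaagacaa
CCR1: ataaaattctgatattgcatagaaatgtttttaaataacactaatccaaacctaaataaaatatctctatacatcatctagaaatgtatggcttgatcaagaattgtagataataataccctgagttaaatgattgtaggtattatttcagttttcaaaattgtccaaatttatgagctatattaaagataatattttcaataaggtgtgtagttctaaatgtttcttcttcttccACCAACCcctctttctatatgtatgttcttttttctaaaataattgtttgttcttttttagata
CAD5: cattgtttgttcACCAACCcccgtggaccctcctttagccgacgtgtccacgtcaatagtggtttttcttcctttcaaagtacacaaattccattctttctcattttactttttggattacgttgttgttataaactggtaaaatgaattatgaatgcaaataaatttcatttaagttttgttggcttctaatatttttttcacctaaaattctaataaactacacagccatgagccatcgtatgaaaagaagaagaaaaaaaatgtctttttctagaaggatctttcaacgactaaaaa
The motif began 22 bases before the start of *C3'H*, 95 before that of *CCoAOMT1*, 14 before that of *CCR1* and 238 before that of *CAD5*, in each case on the strand of the gene. The windows were placed on the first listed transcript of each gene. Another transcript of *CCoAOMT1* starts further upstream, at position 16310409, and other transcripts of *CCR1* and *CAD5* start further downstream. These matches are a description of letters in a window, and binding was not measured.

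Levels of different genes were compared per kb of exon. In WT at 11 DAP *CCoAOMT1* and *COMT1*, both methyltransferases, were the most abundant at 250.6 and 240.3 CPM per kb, and their library ranges overlapped. *CCR1* followed at 91.0, *CAD5* at 68.4, *CSE* at 59.3, *CAD4* at 46.7, *F5H1* at 25.5, *C3'H* at 8.33 and *CCR2* at 0.202 CPM per kb. None of these further neighbours overlapped in that group. In *myb107-2* at 11 DAP *COMT1* stood first at 193.7 CPM per kb and *CCoAOMT1* second at 121 CPM per kb, with no overlap between them, while *CAD5*, *CAD4* and *CSE* overlapped with their neighbours. In *myb107-2* at 11 DAP+Cold the libraries of *CCoAOMT1*, *COMT1* and *CCR1* overlapped from one to the next, at 180.5, 165.0 and 149 CPM per kb. In WT at 13 DAP *CCoAOMT1* reached 899 CPM per kb, against 237 CPM per kb for *COMT1*, and *CCR2* was last at 11.2 CPM per kb. Summed over the 9 genes, the level was 574, 621 and 580.5 CPM per kb in *myb107-2* at 11 DAP and 824, 751 and 795 CPM per kb in WT. At 11 DAP+Cold the sum was 720.2, 678 and 632 CPM per kb in *myb107-2* and 1041, 1041 and 1320 CPM per kb in WT. The sums of the *myb107-2* libraries lay below those of the WT libraries at both temperatures, without overlap. The most abundant genes weigh most in such a sum. In the cold *CCoAOMT1* had 507 CPM per kb in WT and *COMT1* 259, against the 180.5 and 165.0 in *myb107-2*. *CCR1* had 151 in WT against 149 in *myb107-2*, *CAD5* 71.9 against 64.4, *CSE* 68.6 against 43.6 and *F5H1* 15.3 against 11.0. *CAD4* had 48.3 against 50.4, *C3'H* 12.6 against 12.7 and *CCR2* 0.423 against 0.3925.

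The comparison of *myb107-2* with WT asks which genes depend on MYB107 in these tissues. *CCoAOMT1*, which methylates caffeoyl-CoA to feruloyl-CoA, was the single gene of the 9 called lower at 11 DAP, and the single one called lower at 11 DAP+Cold. By the rule for calls 0.717% of the 26068 genes tested were lower in *myb107-2* at 11 DAP, and 1.14% at 11 DAP+Cold. The median log2 fold change of the 9 was -0.25 at 11 DAP and -0.17 at 11 DAP+Cold, against 0 over all genes tested at each temperature. The 5 seed coat markers summed to between 1548 and 2373 CPM in *myb107-2* at 11 DAP and between 2358 and 2413 CPM in WT, and to between 1419 and 1643 CPM in *myb107-2* at 11 DAP+Cold and between 844.5 and 1619 CPM in WT, sums made up mostly of *TT10*. Gene by gene, 4 of the 5 were negative at each temperature, with median log2 fold changes of -0.415 at 11 DAP, where *MUM4* was called lower (-1.18), and -0.642 at 11 DAP+Cold, where none was called and *TT10* alone was positive (0.39). These medians are further from 0 than those of the 9 genes, and the part of the markers in the differences was not tested.

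*CCoAOMT1* (chr4:16310409-16312308, plus strand) had 187, 186 and 190.4 CPM in *myb107-2* at 11 DAP, against 422, 381 and 362 CPM in WT. In the cold it had 311, 258 and 270.4 CPM in *myb107-2*, against 664, 606 and 1085 CPM in WT. No mutant library overlapped with a WT library at the same temperature, and WT 11 DAP+Cold replicate 3 stood well above the other two. The log2 fold change was -1.07 at 11 DAP (SE 0.18, edgeR adjusted p = 0.0063) and -1.50 at 11 DAP+Cold (SE 0.18, edgeR adjusted p = 0.00011), or 2.09-fold and 2.83-fold lower in *myb107-2*. Without WT 11 DAP replicate 1 the value at 11 DAP was -0.99 and under the fold minimum (edgeR adjusted p = 0.032), and without WT 11 DAP+Cold replicate 3 the value in the cold was -1.21 (edgeR adjusted p = 3.4e-05).

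**Figure D1:**
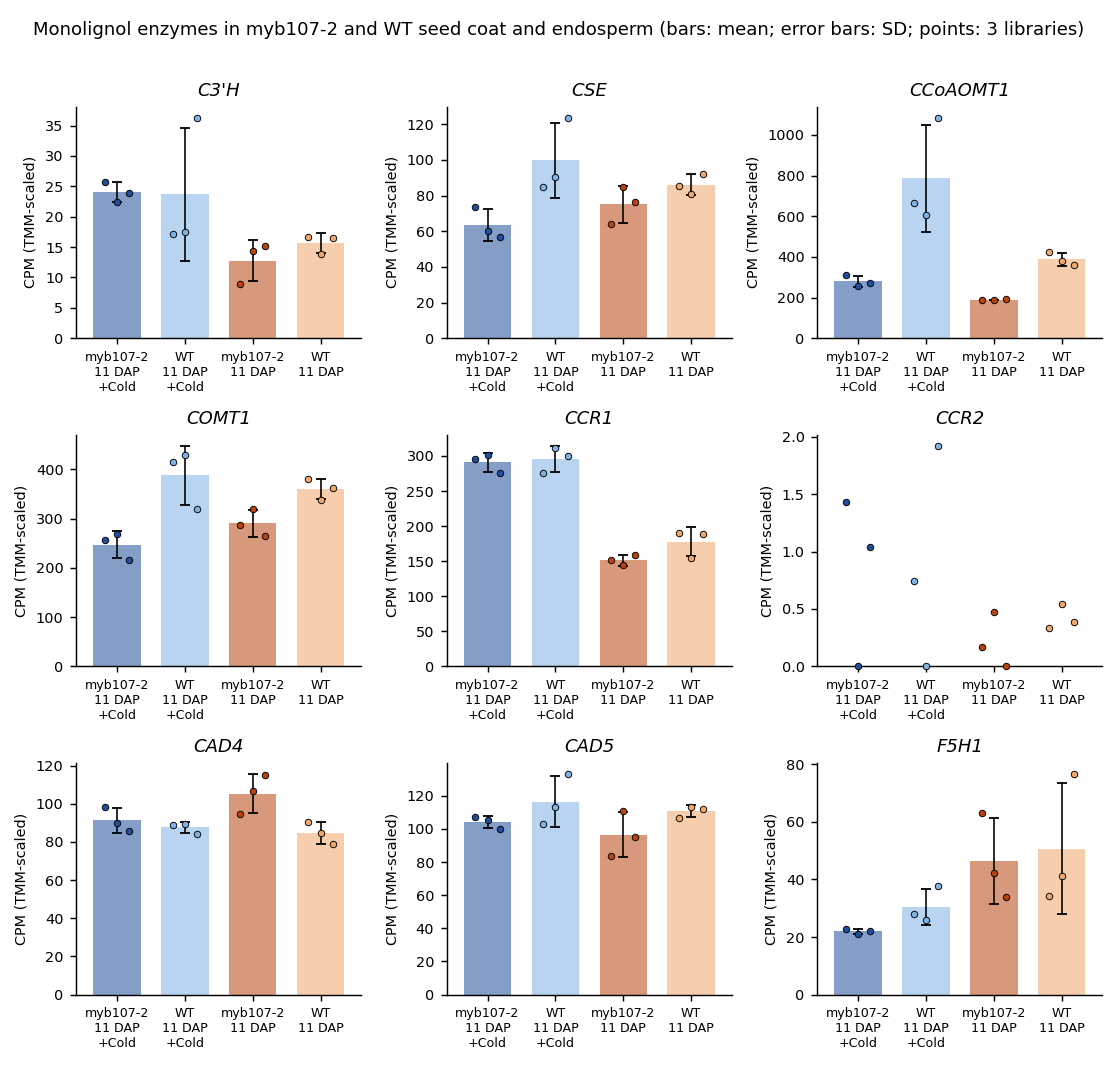
Level of each of the 9 genes in *myb107-2* and WT at 11 DAP+Cold and at 11 DAP, in TMM-scaled CPM, with bars for the mean, error bars for the SD and points for the 3 libraries; *CCR2*, listed at 0 in some libraries, is shown by points alone. *CCoAOMT1* is the panel in which the *myb107-2* points lie far below the WT points at both temperatures, with log2 fold changes of -1.50 and -1.07.

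The enzymes before the methylation step are *C3'H* (chr2:17058053-17060652, minus strand), the cytochrome P450 CYP98A3 that hydroxylates *p*-coumaroyl shikimate, and *CSE* (chr1:19651172-19652825, plus strand), the esterase that frees caffeate from caffeoyl shikimate. *C3'H* had 8.85, 14.3 and 15.1 CPM in *myb107-2* at 11 DAP and 16.7, 13.8 and 16.6 CPM in WT, and at 11 DAP+Cold 25.7, 22.4 and 24.0 CPM in *myb107-2* and 17.2, 17.5 and 36.3 CPM in WT. The groups overlapped at both temperatures and neither difference passed the test, at log2 fold changes of -0.33 and 0.04. *CSE* had 63.9, 85.0 and 76.2 CPM in *myb107-2* at 11 DAP and 85.5, 80.9 and 92.2 CPM in WT, which overlapped. After the cold it had 73.5, 60.1 and 56.6 CPM in *myb107-2* and 84.7, 90.7 and 124 CPM in WT, with no overlap. Its log2 fold change in the cold was -0.66 (SE 0.16, edgeR adjusted p = 0.027), under the fold minimum, and without WT 11 DAP+Cold replicate 3 it was -0.50 (edgeR adjusted p = 0.06).

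*COMT1* (chr5:21981902-21984399, plus strand) encodes the O-methyltransferase of the S branch, which also methylates flavonols and intermediates of melatonin. It had 287, 319 and 265 CPM in *myb107-2* at 11 DAP, against 379, 338 and 362 CPM in WT, and 257, 268 and 216 CPM in *myb107-2* at 11 DAP+Cold, against 415.5, 429 and 319 CPM in WT. The mutant libraries were below the WT libraries at both temperatures. The log2 fold change was -0.33 at 11 DAP (SE 0.14, edgeR adjusted p = 0.32) and -0.67 at 11 DAP+Cold (SE 0.14, edgeR adjusted p = 0.014), so that the second passed the adjusted p and was under the fold minimum. With the adjusted p alone, 3 of the 9 genes differed at 11 DAP+Cold (*CCoAOMT1*, *COMT1* and *CSE*, all lower in *myb107-2*), against 3.11% of all genes tested, and *CCoAOMT1* alone differed at 11 DAP.

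The reductases that make the aldehydes are *CCR1* (chr1:5478603-5482180, plus strand), the main cinnamoyl-CoA reductase of developmental lignification, and *CCR2* (chr1:30370474-30372799, plus strand), known mainly from pathogen responses. *CCR1* had 151, 144 and 159 CPM in *myb107-2* at 11 DAP and 191, 154 and 189 CPM in WT, and 296, 301 and 276 CPM in *myb107-2* at 11 DAP+Cold and 275, 312 and 300.5 CPM in WT. The groups overlapped at both temperatures, with log2 fold changes of -0.25 (edgeR adjusted p = 0.37) and -0.04 (edgeR adjusted p = 0.98). *CCR2* was close to the limit of detection, with 16, 30 and 0 counts in *myb107-2* at 11 DAP and 29, 41 and 29 in WT, and 81, 0 and 74 counts in *myb107-2* at 11 DAP+Cold and 55, 0 and 84 in WT. Its log2 fold change had an SE of 1.31 at 11 DAP and of 0.93 at 11 DAP+Cold, and a difference of *CCR2* between genotypes was not detectable. The WT 11 DAP+Cold library listed at 0 had the largest total of its group, 75.9 M, and the one with 84 counts the smallest, 43.1 M. Both reductase genes overlap with a gene on the opposite strand, as does *C3'H*, and the strand setting used for counting is not given in the sources used here.

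The last enzymes are the cinnamyl alcohol dehydrogenases *CAD4* (chr3:6744377-6747238, plus strand) and *CAD5* (chr4:16386631-16388940, minus strand), which together account for most lignin-related CAD activity in stems, and *F5H1* (chr4:17137313-17139777, minus strand), the P450 that opens the S branch. *CAD4* had 94.5, 107 and 115 CPM in *myb107-2* at 11 DAP and 90.7, 84.6 and 78.7 CPM in WT, the one gene of the 9 with a positive log2 fold change there (0.30, SE 0.11, edgeR adjusted p = 0.25). Its mutant libraries were above its WT libraries without overlap, and the difference did not pass the test. *CAD5* had 83.7, 111 and 95.04 CPM in *myb107-2* at 11 DAP and 107, 113 and 112 CPM in WT, which overlapped. At 11 DAP+Cold *CAD4* and *CAD5* had log2 fold changes of 0.05 and -0.17, and both sets of libraries overlapped with WT. *F5H1* had 62.9, 42.4 and 34.0 CPM in *myb107-2* at 11 DAP and 34.2, 41.3 and 76.6 CPM in WT, a wide spread in both. At 11 DAP+Cold it had 22.9, 20.95 and 21.9 CPM in *myb107-2*, all below the 27.8, 25.8 and 37.6 CPM in WT, with a log2 fold change of -0.48 (edgeR adjusted p = 0.51).

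A further test asked if the difference between *myb107-2* and WT was itself different at 11 DAP+Cold and at 11 DAP. None of the 9 genes passed, against 0.280% of all genes tested at the adjusted p alone. The value nearest the threshold was that of *CSE*, -0.45 (SE 0.22, edgeR unadjusted p = 0.057, adjusted p = 0.72), and *CCoAOMT1* had -0.44 (SE 0.25, edgeR adjusted p = 0.83). None of the 9 had an unadjusted p under 0.05, which 1884 of all genes tested had, and DESeq2 called none of the 9 either.

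Transfer of WT seeds to the cold was followed at 6 h and at 48 h, against the same WT 11 DAP libraries. Without a group kept warm for 6 h, cold cannot be told apart at 6 h from elapsed time or time of day. None of the 9 genes was called at 6 h, against 1.37% of the 26245 genes tested in either direction, and none at 48 h, against 6.00%. Over all genes tested, 4315 had an unadjusted p under 0.05 at 6 h and 6197 at 48 h, and of the 9 genes 2 did at 6 h (*CAD4* and *F5H1*) and 4 at 48 h (*C3'H*, *CCoAOMT1*, *CCR1* and *F5H1*). DESeq2 called none of the 9 at 6 h and 1 at 48 h, *CCoAOMT1*. The median log2 fold change of the 9 was -0.09 at 6 h and 0.19 at 48 h, against -0.01 and 0.00 over all genes tested.

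At 6 h the alcohol dehydrogenase *CAD4* had 200.4, 127 and 127 CPM in the cold, against 90.7, 84.6 and 78.7 CPM in WT 11 DAP. The groups did not overlap, and the log2 fold change of 0.82 (SE 0.19, edgeR adjusted p = 0.037) passed the adjusted p and not the fold minimum. It was the single gene of the 9 to do so, against 2.79% of all genes tested. Replicate 1 of the 6 h group stood well above the others, and with a library left out the *CAD4* value lay between 0.579 and 0.946. *F5H1* had 27.1, 32.45 and 32.05 CPM after 6 h of cold, below each of the 34.2, 41.3 and 76.6 CPM in WT 11 DAP, and its log2 fold change of -0.74 (SE 0.34, edgeR adjusted p = 0.3) did not pass the test. *CCoAOMT1* had 552, 452.5 and 474 CPM after 6 h, above each of the 422, 381 and 362 CPM in WT 11 DAP, at a log2 fold change of 0.33 (SE 0.20, edgeR adjusted p = 0.47).

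After 48 h of cold *CCoAOMT1* had 664, 606 and 1085 CPM in WT, against 422, 381 and 362 CPM in WT 11 DAP, with no overlap. Its log2 fold change of 0.997 (SE 0.21, edgeR adjusted p = 0.0073) lay just under the fold minimum, and several other settings called it, with values between 1.002 and 1.04. Without WT 11 DAP+Cold replicate 3, in which *C3'H* and *CSE* were also highest, the value was 0.71 (edgeR adjusted p = 0.022). *CCR1* had 275, 312 and 300.5 CPM after 48 h, against 191, 154 and 189 CPM in WT 11 DAP, again with no overlap. Its log2 fold change was 0.72 (SE 0.15, edgeR adjusted p = 0.0064), and *CCoAOMT1* and *CCR1* were the 2 genes of the 9 past the adjusted p, against 10.6% of all genes tested. *CAD4*, at 88.9, 89.5 and 84.3 CPM after 48 h, was within the range of WT 11 DAP and below all 3 libraries of 6 h. *F5H1* had 27.8, 25.8 and 37.6 CPM after 48 h, at a log2 fold change of -0.75 (SE 0.34, edgeR adjusted p = 0.2). *COMT1* and *CAD5* had log2 fold changes of 0.09 and 0.06 and overlapped with WT 11 DAP.

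The same interval in *myb107-2* compared 11 DAP+Cold with 11 DAP within the mutant. *F5H1* was called lower at 11 DAP+Cold, with 22.9, 20.95 and 21.9 CPM, against 62.9, 42.4 and 34.0 CPM at 11 DAP. The log2 fold change was -1.10 (SE 0.27, edgeR adjusted p = 0.0083), where 3.83% of all genes tested were lower and 4.14% higher. Without *myb107-2* 11 DAP replicate 1 it was -0.81 (edgeR adjusted p = 0.053). *CCR1* was higher at 11 DAP+Cold in every library, with 296, 301 and 276 CPM against 151, 144 and 159 CPM at 11 DAP, and its log2 fold change of 0.93 (SE 0.12, edgeR adjusted p = 3.6e-05) was under the fold minimum.

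*C3'H* had 25.7, 22.4 and 24.0 CPM in *myb107-2* at 11 DAP+Cold, against 8.85, 14.3 and 15.1 CPM at 11 DAP, a log2 fold change of 0.92 (SE 0.25, edgeR adjusted p = 0.019). It was past the fold minimum without *myb107-2* 11 DAP replicate 2 (1.01) or replicate 3 (1.06). *CCoAOMT1* had a log2 fold change of 0.57 (SE 0.18, edgeR adjusted p = 0.038). With the adjusted p alone, 4 of the 9 genes differed, against 18.3% of all genes tested. The change from 11 DAP to 11 DAP+Cold was compared between the genotypes by the test of the difference given above, which none of the 9 genes passed.

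**Figure D2:**
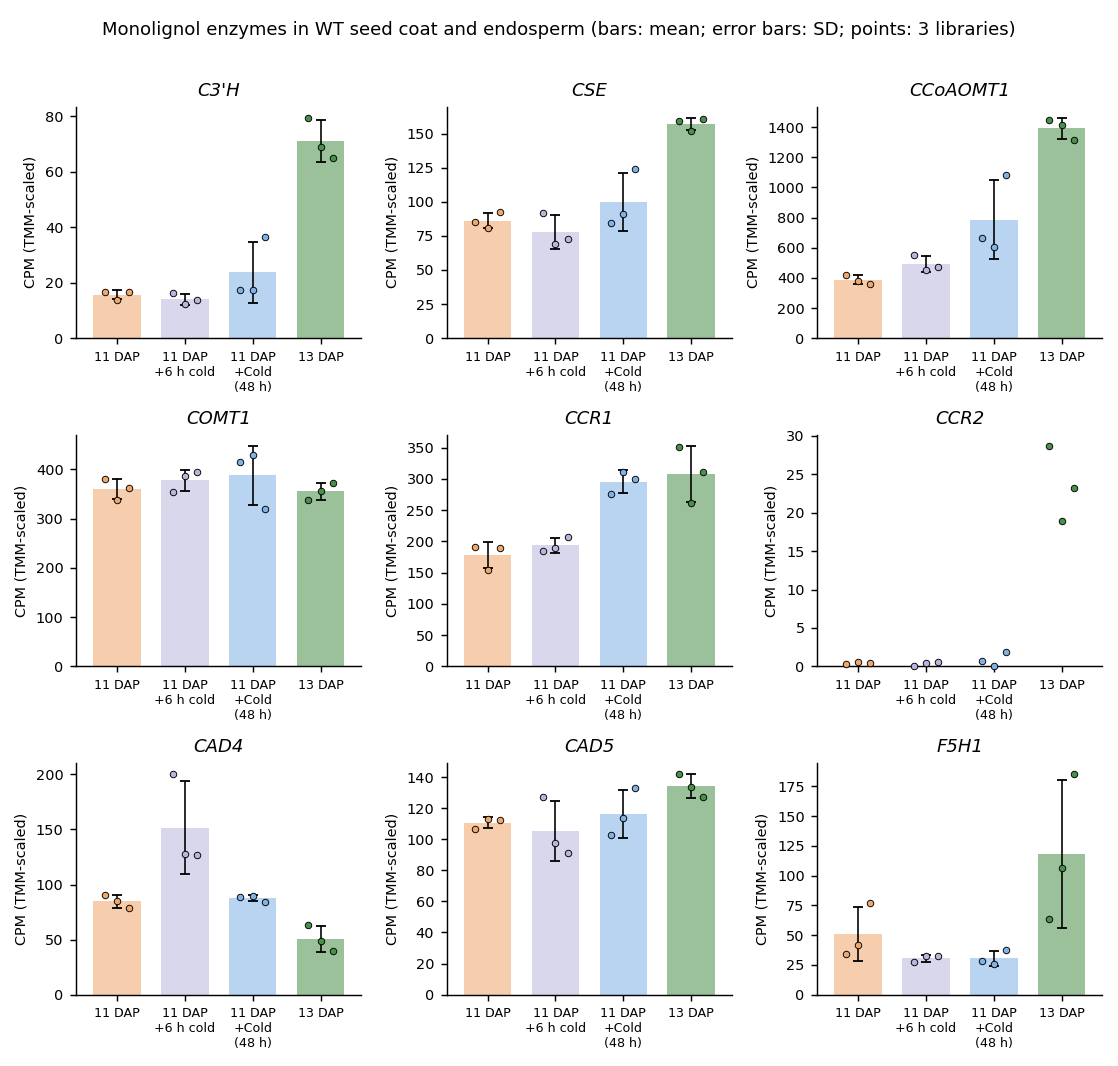
Level of each of the 9 genes in the 4 WT groups in TMM-scaled CPM, with bars for the mean, error bars for the SD and points for the 3 libraries; *CCR2* is shown by points alone. *CCoAOMT1* is highest at 13 DAP, a group without cold, at between 1314 and 1450 CPM. *CAD4* is highest after 6 h of cold and lowest at 13 DAP, and *CCR2* stands off the axis at 13 DAP alone.

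WT seeds at 13 DAP had no cold and were compared with WT seeds at 11 DAP. At 13 DAP 4 of the 9 genes were called higher than at 11 DAP, *CCR2*, *C3'H*, *CCoAOMT1* and *F5H1*, where 5.22% of all genes tested were called higher. With the adjusted p alone 7 of the 9 differed, *CSE* and *CCR1* also higher and *CAD4* lower at 13 DAP, against 17.1% of all genes tested. The median log2 fold change of the 9 was 0.83, against 0 over all genes tested. *COMT1* and *CAD5* did not pass.

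*CCR2* had 28.7, 18.9 and 23.2 CPM at 13 DAP, against 0.336, 0.547 and 0.390 CPM at 11 DAP. In counts this was 856, 1038 and 1525 at 13 DAP and 29, 41 and 29 at 11 DAP, so the pathogen-related reductase left the detection limit at 13 DAP. The log2 fold change was 5.76 (SE 0.68, edgeR adjusted p = 4.2e-05), or 54.0-fold, and 5.62 without WT 13 DAP replicate 1. *CCR1*, at 352, 262 and 311 CPM at 13 DAP and 191, 154 and 189 CPM at 11 DAP, had a log2 fold change of 0.75 (SE 0.15, edgeR adjusted p = 0.0022), under the fold minimum, and 0.66 without WT 13 DAP replicate 1. *CCR2* made up 7.07, 6.30 and 6.49% of the summed *CCR1* and *CCR2* level per kb in the 13 DAP libraries, and at most 0.593% in any of the other libraries.

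*C3'H* had 79.6, 69.0 and 65.0 CPM at 13 DAP, against 16.7, 13.8 and 16.6 CPM at 11 DAP, without overlap. Its log2 fold change was 2.14 (SE 0.25, edgeR adjusted p = 3.4e-05), or 4.41-fold. *CSE*, the esterase of the following step, had 159, 152 and 160.3 CPM at 13 DAP, against 85.5, 80.9 and 92.2 CPM at 11 DAP, a log2 fold change of 0.83 (SE 0.15, edgeR adjusted p = 0.0017). *CCoAOMT1* had 1450, 1417 and 1314 CPM at 13 DAP, against 422, 381 and 362 CPM at 11 DAP, a log2 fold change of 1.80 (SE 0.21, edgeR adjusted p = 3.6e-05) or 3.49-fold. Without WT 13 DAP replicate 1 the values were 2.07 for *C3'H*, 0.84 for *CSE* and 1.79 for *CCoAOMT1*.

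*F5H1* had 63.1, 106 and 185 CPM at 13 DAP, against 34.2, 41.3 and 76.6 CPM at 11 DAP. Its groups overlapped, and its log2 fold change of 1.19 (SE 0.34, edgeR adjusted p = 0.027) was not called without WT 11 DAP replicate 1 (0.98), WT 11 DAP replicate 2 (1.09) or WT 13 DAP replicate 3 (0.71), while it was 1.51 without WT 13 DAP replicate 1. *CAD4* had 63.3, 48.7 and 39.9 CPM at 13 DAP, all below the 90.7, 84.6 and 78.7 CPM at 11 DAP, a log2 fold change of -0.79 (SE 0.19, edgeR adjusted p = 0.011), and -0.96 without WT 13 DAP replicate 1. *CAD5* had 142, 133 and 127 CPM at 13 DAP, all above the 107, 113 and 112 CPM at 11 DAP, and did not pass the test (log2 fold change 0.24, edgeR adjusted p = 0.33, and 0.21 without WT 13 DAP replicate 1). *COMT1* had 338, 355 and 373 CPM at 13 DAP and 379, 338 and 362 CPM at 11 DAP, which overlapped, and its log2 fold change without that library was -0.005.

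The makeup of the *CAD* pair was also described for each group. *CAD5* was 71.5, 75.4 and 78.1% of the summed *CAD4* and *CAD5* level per kb in WT at 13 DAP, against 56.9, 60.0 and 61.5% in WT at 11 DAP, and it was 41.6, 46.2 and 44.6% after 6 h of cold. These WT groups did not overlap, whereas the WT 11 DAP+Cold libraries, given next, overlapped with those of WT 11 DAP. In *myb107-2* at 11 DAP *CAD5* was 49.8, 53.8 and 48.1% of the pair, below each WT library of that age, and at 11 DAP+Cold it was 54.9, 56.8 and 56.8% in *myb107-2* and 56.4, 58.7 and 63.9% in WT, which overlapped. The share of *CCoAOMT1* in the summed level per kb of all 9 genes was 21.0, 19.3 and 21.2% in *myb107-2* at 11 DAP and 33.1, 32.7 and 29.3% in WT, and 27.9, 24.5 and 27.6% in *myb107-2* at 11 DAP+Cold and 41.2, 37.6 and 53.1% in WT. In WT at 13 DAP *CCoAOMT1* alone made up 56.3, 57.2 and 52.8% of the sum. The shares are a description and were not tested.

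**Figure D3:**
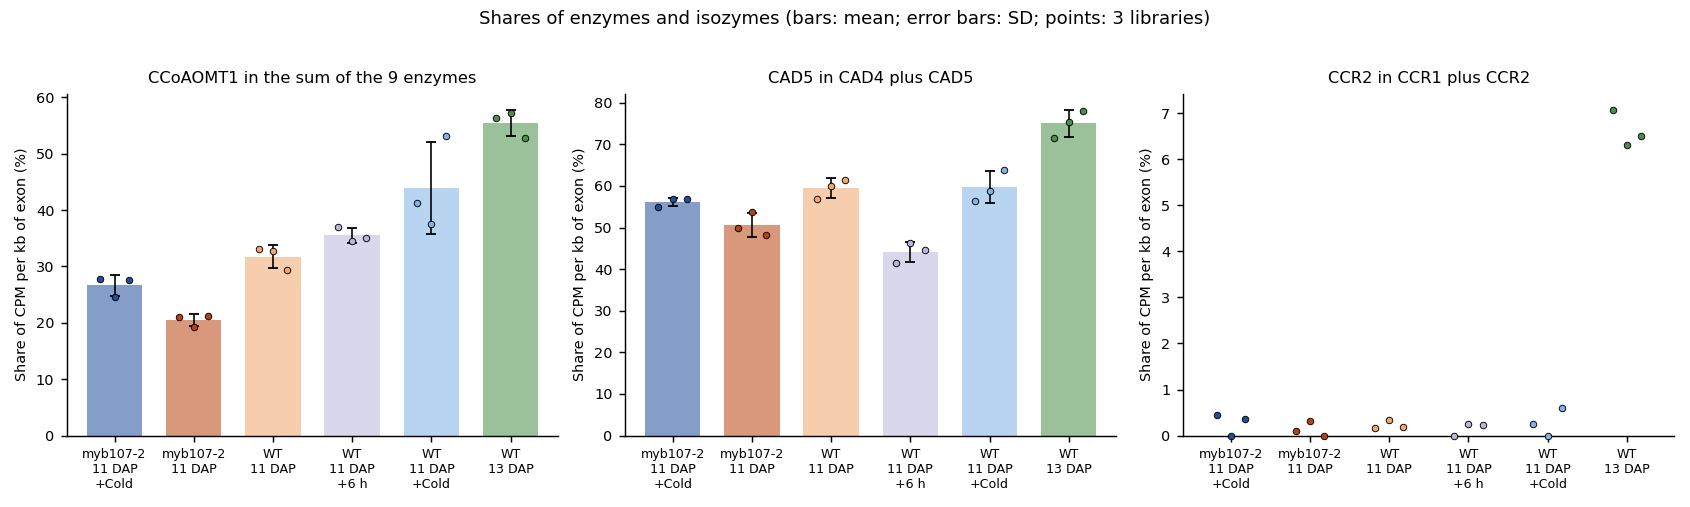
Share of *CCoAOMT1* in the 9 genes, of *CAD5* in *CAD4* plus *CAD5*, and of *CCR2* in *CCR1* plus *CCR2*, in percent of CPM per kb of exon in the 6 groups, with bars for the mean, error bars for the SD and points for the 3 libraries (points alone for *CCR2*). The share of *CCoAOMT1* is lowest in *myb107-2* at 11 DAP, at 19.3 to 21.2%, and the *CCR2* share leaves the axis at 13 DAP, at 6.30 to 7.07%.

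WT seeds at 11 DAP+Cold and at 13 DAP had the same age in days and differed in temperature over the last 48 h. Of the 9 genes *CCR2*, *C3'H* and *F5H1* were called lower at 11 DAP+Cold, where 4.10% of all genes tested were called lower, and none was called higher. *CCR2* had 0.743, 0 and 1.92 CPM at 11 DAP+Cold, against 28.7, 18.9 and 23.2 CPM at 13 DAP (log2 fold change -4.95, SE 0.65, edgeR adjusted p = 0.00023). *C3'H* had 17.2, 17.5 and 36.3 CPM at 11 DAP+Cold, against 79.6, 69.0 and 65.0 CPM at 13 DAP (log2 fold change -1.57, SE 0.24, edgeR adjusted p = 0.00074). *F5H1* had 27.8, 25.8 and 37.6 CPM at 11 DAP+Cold, against 63.1, 106 and 185 CPM at 13 DAP (log2 fold change -1.94, SE 0.35, edgeR adjusted p = 0.0021). The libraries of these 3 genes did not overlap between the groups, and neither did those of *CCoAOMT1*, *CSE* and *CAD4*. How many of all genes tested were without overlap was not counted, so the lack of overlap is not read as particular to these genes. Without WT 13 DAP replicate 1 the same 3 were called, at -4.88 for *CCR2*, -1.53 for *C3'H* and -2.27 for *F5H1*.

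*CCoAOMT1*, *CSE* and *CAD4* passed the adjusted p and not the fold minimum between these groups, so that 6 of the 9 genes differed by the adjusted p alone, against 13.3% of all genes tested. *CCoAOMT1* had a log2 fold change of -0.81 (SE 0.21, edgeR adjusted p = 0.018), and of -1.12 (edgeR adjusted p = 0.00092) without WT 11 DAP+Cold replicate 3, which calls it. *CSE* had -0.64 (SE 0.15, edgeR adjusted p = 0.014) and *CAD4* 0.82 (SE 0.19, edgeR adjusted p = 0.012). *CCR1* differed little, at 275, 312 and 300.5 CPM at 11 DAP+Cold and 352, 262 and 311 CPM at 13 DAP, a log2 fold change of -0.04 (SE 0.14). Without WT 13 DAP replicate 1 the values were -0.80 for *CCoAOMT1*, -0.65 for *CSE*, 0.98 for *CAD4*, 0.05 for *CCR1*, 0.09 for *COMT1* and -0.16 for *CAD5*. This comparison uses the WT 13 DAP and WT 11 DAP+Cold libraries of the comparisons above.

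**Figure D4:**
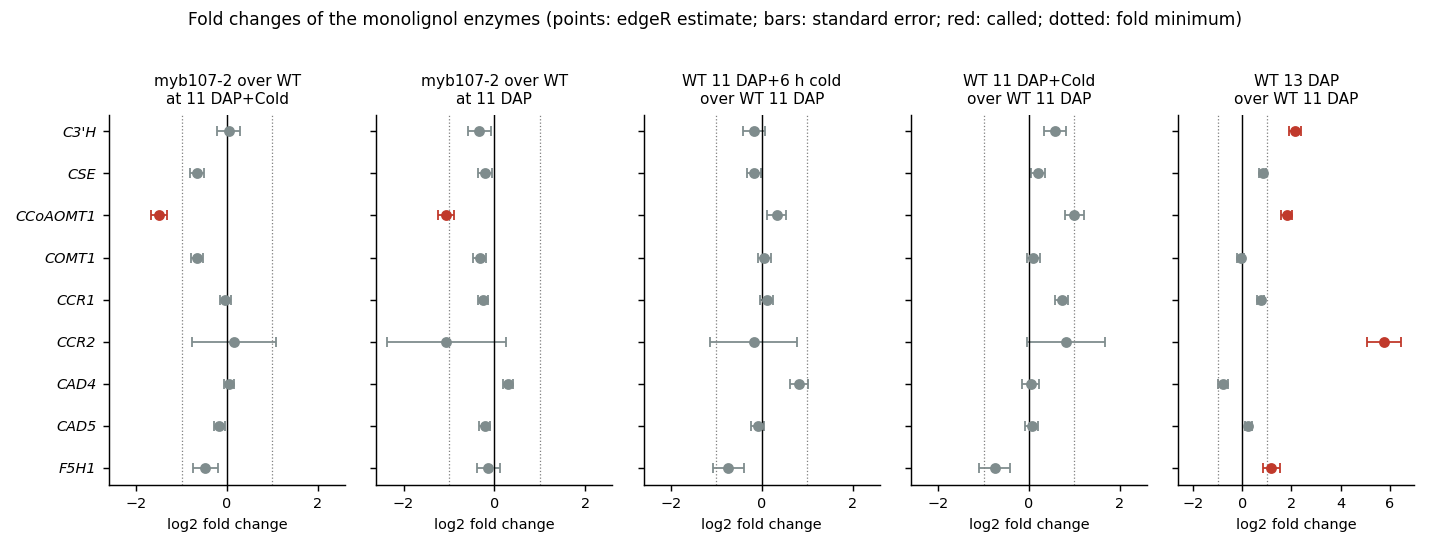
Log2 fold change of each of the 9 genes in 5 comparisons, with points for the edgeR estimate, bars for its standard error, red for genes called and dotted lines at the fold minimum of 1; the last panel has a wider axis. *CCoAOMT1* is the one red point in each genotype panel, at -1.50 and -1.07, and *CCR2* reaches 5.76 at 13 DAP.

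The steps before the branch were taken from a list of 10 genes, the phenylalanine ammonia-lyases *PAL1* to *PAL4*, the hydroxylase *C4H*, the ligases *4CL1*, *4CL2*, *4CL3* and *4CL5*, and *HCT*, which makes the shikimate ester used by C3'H. At 11 DAP 2 of the 10 were called lower in *myb107-2*, *4CL2* (-2.38, SE 0.17, edgeR adjusted p = 8.7e-07) and *4CL5* (-1.13, SE 0.15, edgeR adjusted p = 0.0011), where 0.717% of all genes tested were called lower. *4CL2* had 5.08, 5.13 and 4.76 CPM in *myb107-2*, against 27.9, 20.7 and 28.6 CPM in WT, without overlap. All 10 had a negative log2 fold change and their median was -0.91, against 0 over all genes tested.

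At 11 DAP+Cold 6 of the 10 were called lower in *myb107-2*, *PAL1* (-1.32), *PAL4* (-1.85), *4CL1* (-1.19), *4CL2* (-1.49), *4CL5* (-1.97) and *HCT* (2.0-fold lower), where 1.14% of all genes tested were called lower, and the median of the list was -1.09. *HCT*, at the fold minimum, had 88.5, 72.2 and 68.8 CPM in *myb107-2*, against 156, 144 and 155 CPM in WT. The count fell to 3 without WT 11 DAP+Cold replicate 3 or without *myb107-2* 11 DAP+Cold replicate 2. None of the 10 passed the test of the difference between the temperatures with edgeR, where DESeq2 called 3. By the same count none of the 10 was called after 6 h of cold in WT, and 3 were higher after 48 h, *PAL1* (2.27), *PAL4* (2.80) and *4CL1* (1.12), where 2.80% of all genes tested were higher. Within *myb107-2* 5 of the 10 were higher at 11 DAP+Cold than at 11 DAP, *PAL1* (2.18), *PAL3* (1.57), *PAL4* (1.39), *4CL2* (1.83) and *4CL3* (1.96), where 4.14% of all genes tested were higher. This count was 3 without *myb107-2* 11 DAP replicate 2 or 3 or *myb107-2* 11 DAP+Cold replicate 1 or 3.

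At 13 DAP against 11 DAP 7 of the 10 entry genes were higher, *PAL1* (3.38), *PAL2* (1.25), *PAL4* (4.28), *C4H* (1.58), *4CL1* (2.66), *4CL2* (2.37) and *HCT* (1.40), with a list median of 1.49, where 5.22% of all genes tested were higher, and all 7 were also called without WT 13 DAP replicate 1. *HCT* had 280.1, 333 and 322 CPM at 13 DAP, against 125, 102 and 118 CPM at 11 DAP. Each of these 7 was lower in WT 11 DAP+Cold than in WT 13 DAP, where 4.10% of all genes tested were lower, though 6 of the 10 were called without WT 13 DAP replicate 1, only 4 of the 10 were called without WT 11 DAP+Cold replicate 1 or 2 and 3 without WT 13 DAP replicate 3. A list of 5 partners of the pathway, the scaffold proteins *MSBP1* and *MSBP2* that hold its P450s together, the cytochrome *CB5D* that serves F5H1, the P450 reductase *ATR2* and *REF1*, the aldehyde dehydrogenase that makes ferulate and sinapate, held no called gene in any comparison. Its median was -0.17 between the genotypes at 11 DAP, -0.27 at 11 DAP+Cold and -0.20 between 13 DAP and 11 DAP. Between the genotypes all 5 were negative at 11 DAP and 4 at 11 DAP+Cold. *ATR2* was the lowest, at -0.65 at 11 DAP and -0.86 at 11 DAP+Cold. With a library left out, 0 to 1 of the 5 were called between the genotypes at 11 DAP+Cold.

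**Figure D5:**
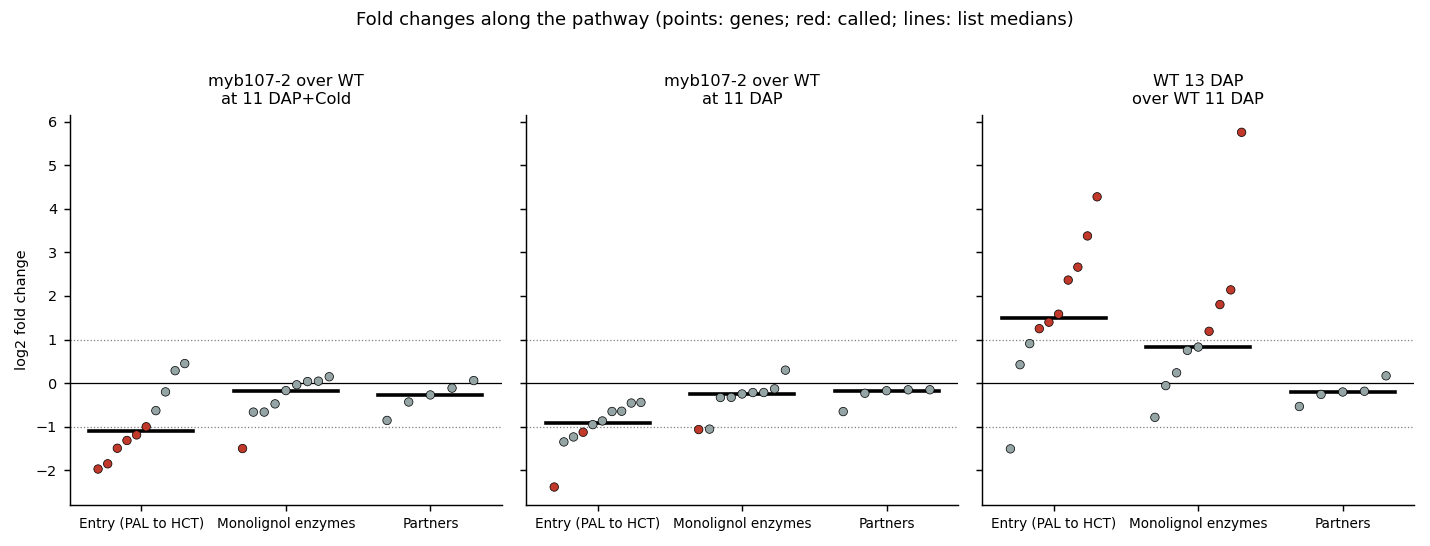
Log2 fold change of the genes of the entry list (10 genes), the monolignol branch (9 genes) and the partners (5 genes) between genotypes at both temperatures and between WT 13 DAP and WT 11 DAP, with a point per gene, red for genes called, a line at each list's median and dotted lines at the fold minimum. The entry list has medians of -1.09, -0.91 and 1.49 and the monolignol list medians of -0.17, -0.25 and 0.83, while no partner is called.

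For each of the 9 genes the 3 genes with the highest Pearson correlation of log2(CPM + 1) over the 18 libraries were taken from 17362 genes with a mean of at least 1 CPM. These libraries share groups, tissue and depth, so the values are a description. *CCoAOMT1* was most like AT4G24140 (r = 0.982), AT5G35110 (r = 0.981) and *TBL30* (r = 0.974), and *C3'H* most like *CYP86A1* (r = 0.964), the suberin fatty acid hydroxylase, *ALDH3H1* (r = 0.962) and AT3G48450 (r = 0.956). *CSE* was most like the glutamine synthetase gene *GLN1.3* (r = 0.939), the lignin regulator *MYB63* (r = 0.93) and *HCT* (r = 0.923). *CCR1* was most like AT5G65530 (r = 0.959), *emb2742* (r = 0.947) and *TKPR2* (r = 0.943), and *CCR2* most like AT3G42180 (r = 0.978), AT5G49350 (r = 0.975) and AT3G21530 (r = 0.974). *CAD4* was most like *QQT2* (r = 0.947), AT4G38410 (r = 0.94) and *IAA8* (r = 0.938), and *F5H1* most like *OPT6* (r = 0.942), *CYP704A2* (r = 0.939) and AT3G13600 (r = 0.918). *COMT1* reached 0.903 with *EXT3*, 0.868 with AT5G35935 and 0.866 with *ABCG20*, and *CAD5* was the least matched, at 0.86 with *ZF3*, 0.844 with *CSE* and 0.824 with AT1G07020.

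Among the 9 genes the highest such correlation was between *C3'H* and *CCR2* (r = 0.919), followed by *CSE* with *CCoAOMT1* (r = 0.861). *CAD4* was negatively correlated with each of the other 8 genes, between -0.06 with *COMT1* and -0.78 with *CCR2*. *COMT1* had low values with *C3'H* (r = -0.003), *CCR1* (r = 0.013) and *CCR2* (r = 0.11). With *MYB107* over the same 18 libraries, *COMT1* had r = 0.842 and *CCoAOMT1* r = 0.796, and the other 7 genes lay between -0.19 and 0.58. These libraries include those of the mutant, in which *MYB107* itself was low. The mutant levels of *COMT1* and *CCoAOMT1* also lay below those of WT at each temperature. Their correlations with *MYB107* are therefore not separate from the genotype comparison, and likeness to *MYB107* within WT alone was not tested.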

How the data were processed

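RNA-seq libraries (TruSeq stranded mRNA, single 50-nt reads) were made from seed coats and endosperms. The authors cleaned the reads with Trim Galore and Sickle, aligned them with HISAT2 and ran StringTie on a Galaxy server. Estimated counts of each gene were deposited, as whole numbers without normalization. Tool versions, genome build and annotation are not given in the sources used here. A date stood where the count should be for 22 genes in 5 files, and these were left out, and identifiers of no nuclear gene (median 0.852% of counts) stayed out of sizes and tests.

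Counts were tested with the quasi-likelihood test of edgeR 4.0.16 (R 4.3.3, limma 3.58.1) after TMM scaling, without a low-count filter, over all genes with a count. One fit held the 12 libraries of both genotypes at 11 DAP and 11 DAP+Cold, another the 12 WT libraries. P-values were adjusted by Benjamini-Hochberg over all genes tested. The difference between temperatures was called at the adjusted p alone. Standard errors were derived from the log2 fold change and the F statistic. On simulated counts with 200 changed genes, the fit of *myb107-2* against WT at 11 DAP called 119 genes, 107 of them changed and 12 not. Changes were set at the fold minimum or above it, in equal numbers. Of the former 56 passed the adjusted p in the right direction, and of the latter 77. For WT 13 DAP against WT 11 DAP 134 genes were called, 121 of them changed and 13 not, and 50 and 85 passed. Many changes of the size of the fold minimum were thus missed. DESeq2 1.42.0 was an alternative. Tables and figures were made with Python 3.11.15, numpy 2.4.6, pandas 2.3.3 and matplotlib 3.10.9.

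All 9 genes are named, with the 3 most correlated genes of each for likeness, and of other lists counts are given and genes among those called may be named. The genes and lists were chosen with earlier results of these data known. Positions and windows are from TAIR10.1, which holds all 37861 identifiers. No replicate pair agreed within sampling noise.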

Additional observations from a re-analysis of the deposited data

How the results depend on the processing

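Of 703 fold changes of the 9 genes under other settings with all libraries, 679 kept their direction and call, 21 gained a call and 3 reversed. The setting without a fold minimum reuses the main fit, so in it no direction could change and no call could be lost. Most of the 21 gains came from that setting. Of 486 fold changes with 1 library left out, 455 kept both, 5 lost a call, 6 gained one and 20 reversed. For WT 11 DAP+Cold against WT 11 DAP, where 0 of the 9 genes were called, 1 was called with DESeq2, RLE or upper-quartile scaling, filterByExpr, a minimum of 10 counts, all 18 libraries in the fit or sizes without ribosomal RNA, and 0 to 1 with a library left out. Without a fold minimum 3 were called between genotypes at 11 DAP+Cold, 1 at 6 h, 2 at 48 h, 7 at 13 DAP, 6 between WT 11 DAP+Cold and 13 DAP and 4 within *myb107-2*. With a library left out, 0 to 1 were called between genotypes at 11 DAP, 0 to 2 within *myb107-2*, 3 to 4 at 13 DAP and 3 to 4 between WT 11 DAP+Cold and 13 DAP. A minimum of 10 counts in every library removes *CCR2*, which leaves 3 and 2 genes called in the 13 DAP comparisons.

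The reversed values belong to differences that were not called. With all libraries, *CCR2* between genotypes at 11 DAP+Cold was -0.117 (DESeq2) or -0.112 (legacy quasi-likelihood), and *CCR1* between WT 11 DAP+Cold and 13 DAP 0.001 (upper-quartile scaling) and -0.163 to 0.046 with a library left out. The other ranges with a library left out were -0.416 to 0.281 for *F5H1* between genotypes at 11 DAP, and at 11 DAP+Cold -0.624 to 1.156 for *CCR2*, -0.154 to 0.440 for *C3'H*, -0.092 to 0.003 for *CCR1* and -0.016 to 0.095 for *CAD4*. They were -0.051 to 0.157 for *CAD5* in the difference between temperatures, -0.569 to 0.290 for *CCR2* and -0.237 to 0.017 for *CAD5* at 6 h, and -0.260 to 1.554 for *CCR2*, -0.023 to 0.092 for *CAD4* and -0.038 to 0.139 for *CAD5* at 48 h. The cause was not tested.

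With the replicate number as a block, 1, 1, 0, 0, 0, 4, 3 and 1 of the 9 genes were called in the 8 comparisons, as without it. The numbers were not taken as pairs, since in no comparison were the deviations of all 3 same-numbered pairs correlated above 0.1. These correlations were at most 0.04 between genotypes, 0.091, 0.213 and 0.146 between WT 11 DAP+Cold and WT 11 DAP, and 0.279, 0.093 and 0.184 between WT 13 DAP and WT 11 DAP. In the last 2 of these 6 of 6 and 5 of 6 libraries correlated best with their own number, a hint from the data and not from the design.

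Over all genes, DESeq2 called 378 for the difference between temperatures, against 73, and 617 at 6 h, against 359. Without a fold minimum the counts were 425 against 234, 810 against 482, 731 against 359, 2769 against 1576, 4482 against 2818, 3482 against 2080 and 4781 against 2078. With a library left out they were as low as 115 against 234 between genotypes at 11 DAP, 26 against 73 for the difference between temperatures and 171 against 359 at 6 h. *CCR2* had at most 84 counts in any library outside 13 DAP, and its differences there were not detectable.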

Other observations

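Relatives of the monolignol enzymes were counted over 13 genes, of which 10 had a count. None was called between the genotypes. Of all genes tested, 5.22% were called higher and 5.52% lower at 13 DAP than at 11 DAP in WT. For 11 DAP+Cold against 11 DAP, 4.14% were called higher in *myb107-2* and 2.80% in WT. At 13 DAP *CCoAOMT7* had 118, 142 and 140.5 CPM, against 414, 321 and 252 CPM at 11 DAP in WT, a log2 fold change of -1.34 (SE 0.19, edgeR adjusted p = 2e-04), opposite in sign to that of *CCoAOMT1*. *CAD9* (-1.21) and *CYP98A9* (-2.04), a relative of *C3'H* known from pollen, were also lower at 13 DAP, and *CAD6* (3.24) and *CAD7* (2.09) higher. Neither of these last calls held with DESeq2 (adjusted p = 0.12 and 0.053) or legacy quasi-likelihood (edgeR adjusted p = 0.27 and 0.18). With 1 library left out *CAD6* lay between 2.603 and 4.257, and *CAD7* was not called without WT 11 DAP replicate 2 (1.81) or 3 (2.00) or WT 13 DAP replicate 1 (1.94) or 3 (2.03). *CAD7* had 4.73, 5.15 and 7.38 CPM in *myb107-2* at 11 DAP+Cold, against 0.839, 0.207 and 0.718 CPM at 11 DAP (log2 fold change 3.20, edgeR adjusted p = 6.2e-05), and 3.92, 2.12 and 4.92 CPM in WT at 11 DAP+Cold, against 0.636, 0.200 and 0.349 CPM at 11 DAP (3.12, edgeR adjusted p = 0.0039, and 0.07 with legacy quasi-likelihood).

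Of 14 MYB and NAC regulators of lignin, 10 had a count, and *MYB46*, *MYB83*, *NST1* and *NST3*, the switches of secondary walls, were listed at 0 in the libraries fitted. *MYB63*, an activator of lignin genes, had 0, 0.558 and 0 CPM in *myb107-2* at 11 DAP+Cold, against 2.51, 1.89 and 4.97 CPM in WT (edgeR adjusted p = 0.0063, and 0.21 with legacy quasi-likelihood, which does not call it), and 7.95, 10.6 and 12.3 CPM in WT at 13 DAP, against 1.11, 0.800 and 1.34 CPM at 11 DAP (log2 fold change 3.21, edgeR adjusted p = 2.4e-05). *MYB4*, a repressor of *C4H*, had a log2 fold change of -1.12 (SE 0.18, edgeR adjusted p = 0.0014) between *myb107-2* and WT at 11 DAP+Cold. *MYB15* (3.50), *MYB85* (4.18) and *MYB58* (1.17) were also higher in WT at 13 DAP than at 11 DAP. *MYB85* was not called with legacy quasi-likelihood (edgeR adjusted p = 0.063), nor *MYB58* without WT 13 DAP replicate 1 (0.86) or WT 11 DAP replicate 1 (1.23) or 2 (1.06). After 48 h of cold in WT *MYB15* (2.46), *MYB63* (1.45) and *MYB7* (1.00) were higher, and 0 of the 3 were called without WT 11 DAP replicate 2. *MYB15* was also higher in *myb107-2* at 11 DAP+Cold than at 11 DAP (2.63, edgeR adjusted p = 0.0012). *MYB63* (-1.77) and *MYB85* (-3.15) were lower, and *MYB7* (1.19) and *MYB32* (1.03) higher, in WT at 11 DAP+Cold than at 13 DAP. The call of *MYB85* was lost under at least 1 other setting with all libraries. With 1 library left out *MYB85* lay between -3.532 and -1.881, and *MYB32* between 0.914, under the fold minimum, and 1.122.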
